A study of Homo sapiens with 5 samples.

Results

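The 35 DNA repair and checkpoint mRNAs described here were taken by gene symbol from a list of named genes, and all 35 were found among the 25702 genes of the deposited table. They were measured by RNA immunoprecipitation and sequencing (RIP-seq) in LTAD, a line of human prostate cancer cells grown without androgens in medium with charcoal-stripped serum. The protein precipitated was PSF, an RNA-binding protein of the nucleus encoded by SFPQ. There were 2 PSF-RIP libraries from cells given the small molecule No.10-3 (a code name) at 5 µM, 1 PSF-RIP library from cells given the DMSO vehicle, and 2 input libraries of total RNA, 1 from each treatment. The names of the input columns do not tell the treatments apart, so both served together as 1 reference. No control precipitation is named in the labels. Separate cultures are not stated for the No.10-3 pair, so p-values measure the spread between these libraries, which may be technical.

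DNA repair works through several pathways. Homologous recombination copies an intact sister strand to mend a double-strand break, end joining seals the broken ends directly, the Fanconi anaemia proteins undo crosslinks between strands, and excision and mismatch repair replace damaged or wrongly paired bases. Checkpoint kinases hold the cell cycle while repair goes on. In prostate cancer, inherited and acquired loss of homologous recombination genes is a known feature, and the androgen receptor is known to influence the expression of several repair genes.

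Many repair genes are also known targets of E2F, the transcription factor family of the G1/S transition. The promoters of LIG1 and XRCC2 are shown for their log2 differences of PSF-RIP over input. These were the highest and the lowest among the searched members with a match to an E2F sequence. The search used TTTCCCGC, TTTCGCGC, TTTGCCGC and TTTGGCGC on both strands, in windows of 250 bases before and 50 bases after the gene start, from RefSeq in build GRCh38.p14. A match was present in 9 of the 31 members found in the promoter table (29.0%), against 4.44% of 15843 protein-coding genes. It was present in 7 of 23 members with a log2 difference above 0 and in 2 of 8 below 0. Both windows lie on the minus strand, at chr19:48170295-48170594 for LIG1 and chr7:152676092-152676391 for XRCC2, and capitals mark the match.
LIG1: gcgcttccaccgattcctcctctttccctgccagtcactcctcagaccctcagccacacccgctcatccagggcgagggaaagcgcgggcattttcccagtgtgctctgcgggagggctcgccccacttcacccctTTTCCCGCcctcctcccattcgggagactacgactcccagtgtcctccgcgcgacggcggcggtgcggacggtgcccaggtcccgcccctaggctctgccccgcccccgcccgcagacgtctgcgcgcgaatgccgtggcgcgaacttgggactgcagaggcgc
XRCC2: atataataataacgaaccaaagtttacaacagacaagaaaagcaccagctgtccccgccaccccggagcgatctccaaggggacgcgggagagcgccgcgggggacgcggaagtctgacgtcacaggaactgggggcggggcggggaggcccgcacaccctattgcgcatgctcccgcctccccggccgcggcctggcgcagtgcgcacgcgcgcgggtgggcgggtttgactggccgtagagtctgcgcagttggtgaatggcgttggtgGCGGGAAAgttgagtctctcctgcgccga

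The No.10-3 PSF-RIP libraries held 1519362 counts (replicate 1) and 3368252 (replicate 2), the vehicle PSF-RIP library 2181770, and the inputs 4010376 (deeper) and 3083063 (shallower), in which order their values are given below. The input libraries were made up differently from the PSF-RIP libraries. The small structured RNAs RN7SK, RN7SL1, RN7SL2, RPPH1 and RMRP together took 2.63% to 7.81% of counts in PSF-RIP, against 51.7% and 55.0% in the inputs, and nuclear protein-coding genes took 73.6% to 82.1% in PSF-RIP, against 16.4% and 15.9%. Counts were therefore scaled with TMM factors, which set the typical gene as the zero point. Outside the filter on low counts, CPM below means TMM-scaled CPM, the count after scaling each library to the same effective total. A log2 difference of PSF-RIP over input is thus relative to the typical gene of the library and gives no absolute recovery. With library totals and no factor, the median of all 13321 genes tested was 2.42 log2 units above input, against 0.08 with TMM. The median member had 30 and 112 counts in No.10-3 PSF-RIP and 78 in vehicle PSF-RIP, but only 25 and 13 in the inputs, so the inputs limit the precision. All 10 prostate luminal markers were above 0 in every library, with a summed level of 1398 to 1561 CPM in PSF-RIP and 1486 and 1579 CPM in input. Of 8 leukocyte, stromal and endothelial markers, PTPRC, CD3E and DCN were at 0 in all 5 libraries, and the summed level was 31.7 to 46.7 CPM in PSF-RIP and 14.8 and 7.99 CPM in input, most of it from COL1A1. NEAT1, the long noncoding RNA of the paraspeckles that PSF helps to build, stood at 548 and 950 CPM in No.10-3 PSF-RIP and 512 in vehicle PSF-RIP, against 1589 and 1327 in input (log2 difference -1.12, adjusted p = 0.0572 by edgeR).

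The first comparison asked which repair mRNAs stood higher or lower in PSF-RIP than in input. ERCC3, DDB1, TP53BP1 and LIG3 were higher in PSF-RIP, by log2 differences of 1.07 to 1.63, and BARD1 and NBN were lower, by -2.07 and -1.30. All 3 PSF-RIP libraries lay above both inputs for each of the 4 and below both for each of the 2. The 6 called members were 17.1% of the 35, against 20.4% of all 13321 genes tested by edgeR's quasi-likelihood test with Benjamini-Hochberg adjustment. The 4 higher members made 11.4%, against 10.0% of all genes, and the 2 lower ones 5.71%, against 10.4%. The share of repair mRNAs called was therefore close to that of genes at large. In total 26 members had a log2 difference above 0 (74.3%, against 52.9% of all genes), with a median of 0.40 over the 35 members, 0.08 over all genes tested and 0.14 over nuclear protein-coding genes. All 3 PSF-RIP libraries lay above both inputs for 14 members (40.0%, against 30.1% of all genes) and below both for 4 (11.4%, against 25.1%). All 35 members passed the filter on low counts.

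**Figure D1:**
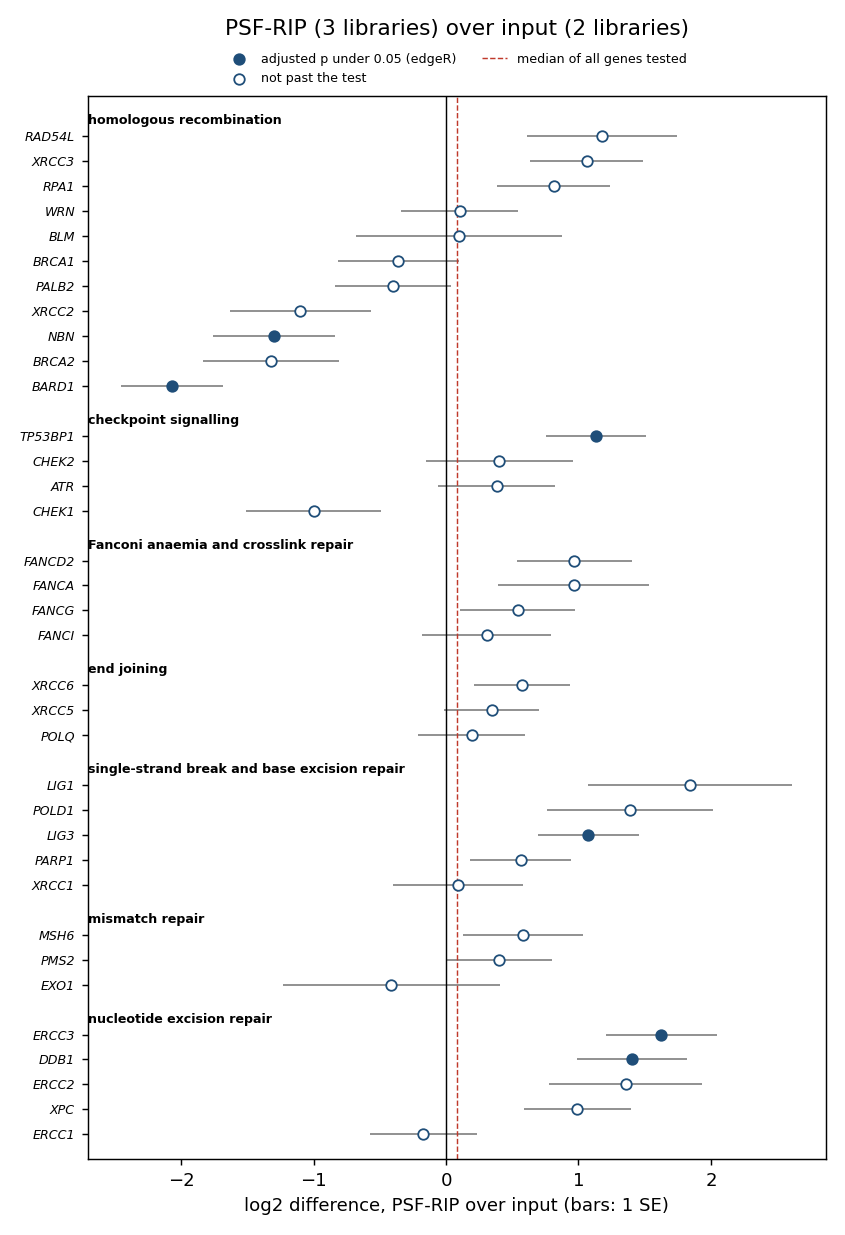
Log2 difference of PSF-RIP (3 libraries) over input (2 libraries) for the 35 members, by repair pathway, with bars of 1 SE from edgeR; filled points have an adjusted p under 0.05, and the dashed line is the median of all genes tested (0.08). BARD1 lies lowest at -2.07 and LIG1 highest at 1.84, with a wide bar because the inputs held 3 and 1 of its counts.

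The members of nucleotide excision repair, which cuts out bulky lesions such as ultraviolet damage, had the highest median of the 7 pathways, at 1.36. ERCC3, a helicase of the transcription factor TFIIH that opens DNA around the lesion (Entrez gene 2071), stood at 31.0 and 42.8 CPM in No.10-3 PSF-RIP and 43.8 in vehicle PSF-RIP, against 16.1 and 8.88 in input. Its log2 difference was 1.63 (SE 0.42, adjusted p = 0.00970). DDB1, the adaptor of the ubiquitin ligase that helps to find damage (Entrez gene 1642), stood at 42.1 and 35.5 CPM in No.10-3 PSF-RIP and 54.1 in vehicle PSF-RIP, against 22.5 and 9.77 in input. Every PSF-RIP value of both genes was above both inputs, and DDB1 had a log2 difference of 1.41 (SE 0.42, adjusted p = 0.0206). ERCC2, the other helicase of TFIIH, stood at 13.3 and 6.20 CPM in No.10-3 PSF-RIP and 10.2 in vehicle PSF-RIP, against 3.22 and 4.44 in input, and missed the threshold with a log2 difference of 1.36 (SE 0.58, adjusted p = 0.0933). XPC, the sensor of distorted DNA, stood at 28.1 and 35.04 CPM in No.10-3 PSF-RIP and 26.2 in vehicle PSF-RIP, against 14.15 and 16.0 in input. All 3 PSF-RIP libraries lay above both inputs, but the gene did not pass the test (0.99, adjusted p = 0.0789). ERCC1, a subunit of the nuclease that cuts on the far side of the lesion, was the exception in sign. It stood at 39.5 and 16.1 CPM in No.10-3 PSF-RIP and 28.1 in vehicle PSF-RIP, a spread that took in both inputs at 33.4 and 28.4. The median of the other 15 nucleotide excision repair genes tested was 0.04.

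Single-strand break and base excision repair removes small lesions and reseals nicks, and its 5 members all had log2 differences above 0, with a median of 1.07. LIG3, the ligase that works with XRCC1 and also seals mitochondrial DNA (Entrez gene 3980), stood at 44.3 and 38.9 CPM in No.10-3 PSF-RIP and 48.6 in vehicle PSF-RIP, against 24.4 and 16.9 in input. The log2 difference was 1.07 (SE 0.38, adjusted p = 0.0466). LIG1, the ligase of replication, had the largest log2 difference of the 35 at 1.84 (SE 0.77) but missed the threshold (adjusted p = 0.0876). It stood at 4.06 and 3.60 CPM in No.10-3 PSF-RIP and 8.57 in vehicle PSF-RIP, against 1.93 and 0.888 in input. With only 3 and 1 counts in the inputs, the ratio of pooled counts was 3.49 with an exact 95% interval of 1.30 to 13.1, which covers counting error only. POLD1, the catalytic subunit of DNA polymerase delta, stood at 8.13 and 4.90 CPM in No.10-3 PSF-RIP and 13.3 in vehicle PSF-RIP, against 4.50 and 1.78 in input (1.39, adjusted p = 0.113). PARP1, which marks strand breaks with poly(ADP-ribose), and XRCC1, the scaffold it recruits, were closer to input, with log2 differences of 0.56 and 0.09. XRCC1 stood at 7.39 and 9.08 CPM in No.10-3 PSF-RIP and 6.91 in vehicle PSF-RIP, against 8.36 and 6.21 in input, so the groups overlapped. The other 22 genes of this pathway had a median of 0.32, and 4 of them were called higher and 2 lower.

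The 11 homologous recombination members were spread most widely, with 5 above and 6 below 0 and a median of -0.36. BARD1, the obligate partner of BRCA1 in its ubiquitin ligase (Entrez gene 580), stood at 8.87 and 24.9 CPM in No.10-3 PSF-RIP and 18.3 in vehicle PSF-RIP, against 74.6 in each input. This was the lowest log2 difference of the 35 at -2.07 (SE 0.38, adjusted p = 8.46e-04). NBN, the subunit that brings the MRE11 and RAD50 break sensor to damage (Entrez gene 4683), stood at 4.80 and 12.4 CPM in No.10-3 PSF-RIP and 5.00 in vehicle PSF-RIP, against 19.3 and 18.6 in input. All 3 PSF-RIP libraries were below both inputs, and the log2 difference was -1.30 (SE 0.46, adjusted p = 0.0470).

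BRCA2, a tumour suppressor that acts with PALB2, stood at 2.96 and 11.2 CPM in No.10-3 PSF-RIP and 3.81 in vehicle PSF-RIP, against 19.9 and 11.5 in input (-1.32, adjusted p = 0.0663). The No.10-3 library of replicate 2 lay just under the lower input, while the other PSF-RIP libraries lay far below it. XRCC2, which acts in strand exchange, had a log2 difference of -1.10 (adjusted p = 0.136), with 2.59 and 8.07 CPM in No.10-3 PSF-RIP and 4.05 in vehicle PSF-RIP, against 15.4 and 6.21 in input. PALB2, which joins BRCA1 to BRCA2, was below both inputs in all 3 PSF-RIP libraries by a small margin (-0.40, adjusted p = 0.534), and BRCA1 itself lay between the inputs (-0.36, adjusted p = 0.600).

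On the other side of this pathway, RAD54L, a motor protein of strand exchange, stood at 6.28 and 9.81 CPM in No.10-3 PSF-RIP and 18.6 in vehicle PSF-RIP, against 6.43 and 3.55 in input (1.18, adjusted p = 0.132). XRCC3, which also acts in strand exchange, stood at 26.6 and 21.5 CPM in No.10-3 PSF-RIP and 42.1 in vehicle PSF-RIP, against 16.1 and 12.4 in input (1.06, adjusted p = 0.0763). RPA1, a subunit of the protein that coats single-stranded DNA, was above both inputs in all 3 PSF-RIP libraries (0.81, adjusted p = 0.174). The helicases WRN and BLM had log2 differences of 0.10 each, and BLM was low throughout, at 0.888 to 3.33 CPM. The XRCC2 and XRCC3 mRNAs thus had differences of opposite sign, although neither passed the test.

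Among checkpoint genes, TP53BP1, which binds chromatin at breaks and favours end joining (Entrez gene 7158), stood at 66.9 and 63.7 CPM in No.10-3 PSF-RIP and 94.1 in vehicle PSF-RIP, against 38.6 and 29.3 in input. All 3 PSF-RIP libraries were above both inputs, with a log2 difference of 1.13 (SE 0.38, adjusted p = 0.0354). The kinase CHEK1, which acts below ATR, stood at 4.43 and 6.06 CPM in No.10-3 PSF-RIP and 5.00 in vehicle PSF-RIP, against 5.79 and 16.0 in input. The inputs themselves lay far apart there, and the log2 difference of -1.0004 did not pass the test (adjusted p = 0.159). ATR, the kinase of replication stress, and CHEK2, the kinase below ATM, had log2 differences of 0.38 and 0.40, with adjusted p of 0.561 and 0.632.

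The 4 Fanconi anaemia members all had log2 differences above 0, with a median of 0.75, and none passed the test. The other 13 genes of this pathway did not share the sign, with 6 above and 7 below 0 and a median of -0.16. FANCD2, whose ubiquitylation with FANCI starts crosslink repair, stood at 24.4 and 23.8 CPM in No.10-3 PSF-RIP and 38.6 in vehicle PSF-RIP, against 19.9 and 8.88 in input (0.97, adjusted p = 0.109). FANCA, of the core complex that adds the ubiquitin, stood at 8.13 and 6.92 CPM in No.10-3 PSF-RIP and 8.57 in vehicle PSF-RIP, against 5.79 and 1.78 in input (0.96, adjusted p = 0.230). FANCG, of the same complex, stood at 14.8 and 16.2 CPM in No.10-3 PSF-RIP and 24.3 in vehicle PSF-RIP, against 12.9 and 12.4 in input (0.54, adjusted p = 0.386). All 3 genes lay above both inputs in every PSF-RIP library, while FANCI had a log2 difference of 0.31 and lay between the inputs in both No.10-3 libraries.

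The end-joining members were near input. XRCC6, which with XRCC5 forms the Ku ring that binds broken ends, stood at 72.0 and 100.2 CPM in No.10-3 PSF-RIP and 72.6 in vehicle PSF-RIP, against 50.8 and 59.5 in input (0.57, adjusted p = 0.266). XRCC5 stood at 72.4 and 104.1 CPM in No.10-3 PSF-RIP and 80.5 in vehicle PSF-RIP, against 74.6 and 60.4 in input (0.34, adjusted p = 0.520). XRCC6 lay above both inputs in every PSF-RIP library, and XRCC5 overlapped with them. POLQ, the polymerase of microhomology-mediated joining, stood at 18.1 and 44.0 CPM in No.10-3 PSF-RIP and 39.5 in vehicle PSF-RIP, against 35.4 and 23.97 in input (0.19, adjusted p = 0.762), with replicate 1 below both inputs and the other PSF-RIP libraries above both.

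The mismatch repair members overlapped with the inputs. MSH6, which recognises single mispairs, stood at 12.2 and 19.3 CPM in No.10-3 PSF-RIP and 25.2 in vehicle PSF-RIP, against 16.1 and 8.88 in input (0.58, adjusted p = 0.368). EXO1, the exonuclease, was low, at 0.369 and 1.59 CPM in No.10-3 PSF-RIP and 3.57 in vehicle PSF-RIP, against 3.22 and 1.78 in input (-0.41, adjusted p = 0.752). PMS2, the nuclease subunit, stood at 21.8 and 28.4 CPM in No.10-3 PSF-RIP and 28.8 in vehicle PSF-RIP, against 24.4 and 15.1 in input (0.40, adjusted p = 0.490). The deposited table counts PMS2 apart from 7 named copies, of which PMS2CL alone held 250 counts over the 5 libraries, so reads may have been split between them.

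**Figure D2:**
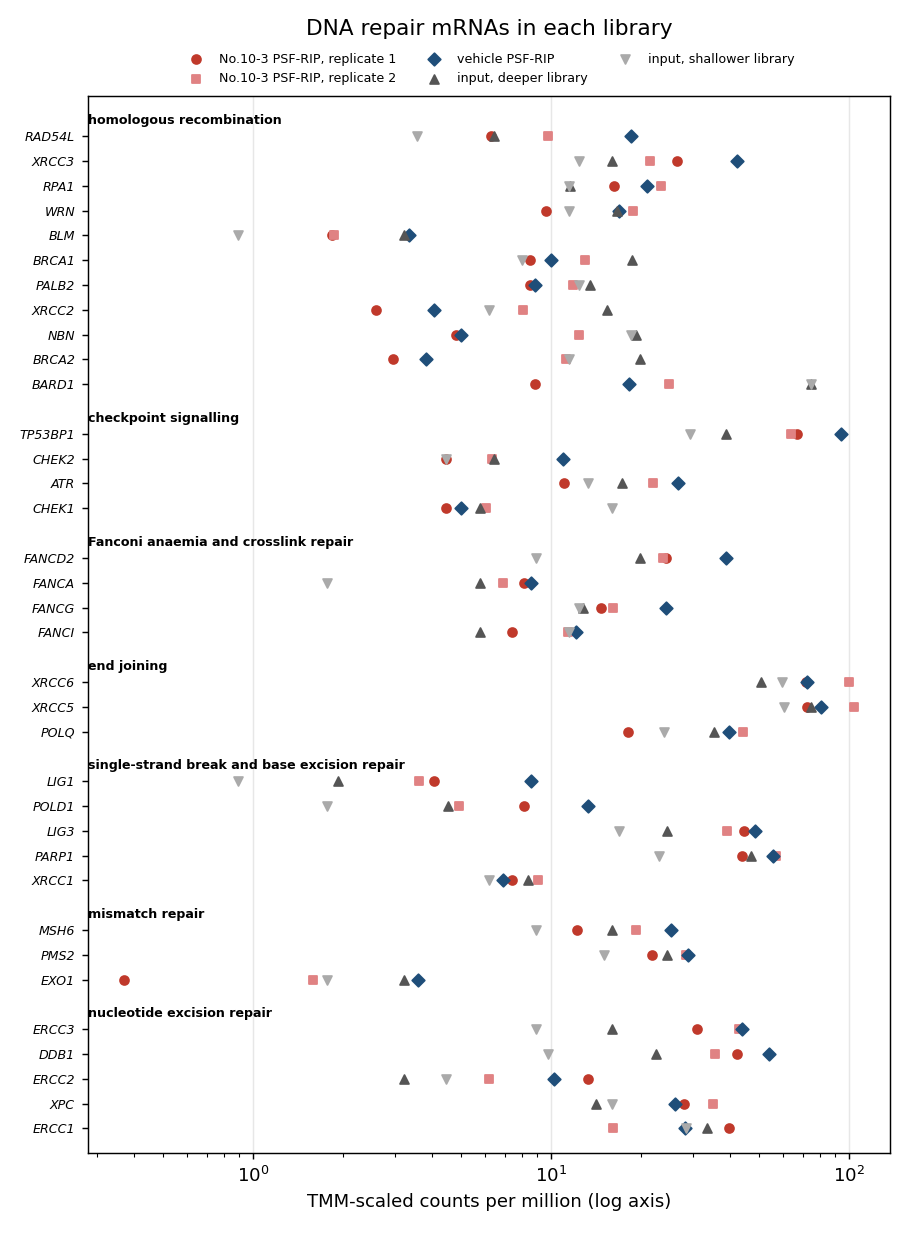
Level of each member in each of the 5 libraries, in TMM-scaled CPM on a log axis, by repair pathway and in order of log2 difference within it. BARD1 shows the widest gap, with both inputs at 74.6 CPM and the PSF-RIP libraries at 8.87 to 24.9 CPM.

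Per kilobase of gene length, the Ku subunits were the most abundant members in PSF-RIP, with means of 38.3 (XRCC6) and 24.98 (XRCC5) CPM per kilobase, against 25.9 and 19.7 in input. ERCC3 (14.3), PARP1 (13.1), TP53BP1 (11.8), XRCC3 (11.4) and LIG3 (11.3) followed in PSF-RIP, and neighbours in this group differed by less than the spread between libraries. BARD1 ranked only 13 of 35 in PSF-RIP, at 6.67, and was the most abundant member per kilobase in input, at 28.6. ERCC3 went the other way, with rank 3 in PSF-RIP and rank 11 in input, at 4.54. BLM, BRCA2 and EXO1 were at the bottom in PSF-RIP, at 0.519 to 0.532. The log2 difference was nearly unrelated to gene length, with a Spearman's rho of -0.141 over the 35 members, given as a description.

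Repair genes outside the 35 moved both ways to about the same extent as genes at large. Of 109 such genes in the table, 107 were tested, and 13 were called higher in PSF-RIP and 10 lower (21.5%, against 20.4% of all genes), with a median log2 difference of 0.07. POLE, the catalytic subunit of DNA polymerase epsilon, stood at 52.1 and 29.7 CPM in No.10-3 PSF-RIP and 73.6 in vehicle PSF-RIP, against 14.15 and 10.7 in input (2.04, adjusted p = 0.00339). SLX4, a scaffold of nucleases for crosslinks (2.03), MUS81, the nuclease of branched DNA (1.80), RECQL5, a helicase (1.78), and POLM, a polymerase of end joining (1.66), were among the higher ones. GTF2H4, ATRIP, NEIL1 and MUTYH were also higher, with 1.53 to 1.84, and TIMELESS, FAAP100 and TOP3A with 1.08 to 1.51. NEIL3, a DNA glycosylase, had the lowest difference at -3.14 (SE 0.76, adjusted p = 0.00645), with 1.11 and 0.577 CPM in No.10-3 PSF-RIP and 0.238 in vehicle PSF-RIP, against 7.07 and 3.55 in input. RMI1, a partner of BLM, stood at 4.43 and 9.66 CPM in No.10-3 PSF-RIP and 3.57 in vehicle PSF-RIP, against 27.0 and 20.4 in input (-1.95, adjusted p = 0.00497). CETN2, RPA3, RAD51AP1, FANCF, POLB, RBBP8, RAD51C and CUL4B were lower too, with -1.86 to -1.10. Among the other 24 genes of homologous recombination, 5 were called lower (RMI1, RPA3, RAD51AP1, RBBP8 and RAD51C; 10.4% of all genes were) and 3 higher (MUS81, RECQL5 and TOP3A; 10.0%), a difference from genes at large that was not tested.

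**Figure D3:**
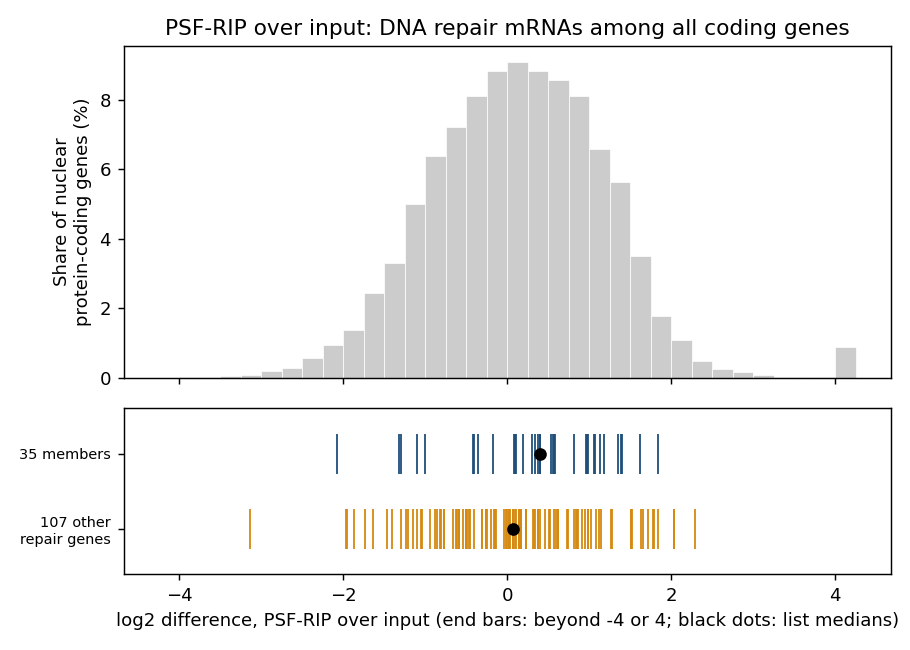
Above, the share of 11804 nuclear protein-coding genes in each 0.25-wide bin of the log2 difference of PSF-RIP over input, with a bin at each end for values beyond -4 or 4; below, 1 tick for each of the 35 members and the 107 other repair genes, with a dot at each median (0.40 and 0.07). The members span -2.07 to 1.84, and NEIL3, at -3.14, is the lowest of the other repair genes.

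Each treatment was also set against the inputs, which both comparisons share. The vehicle arm is a single library that was assumed to vary like the other groups, so its calls carry no replicate check of their own. In vehicle PSF-RIP, 7 members were called higher than input and 3 lower (10.1% and 10.4% of all genes were called higher and lower). In No.10-3 PSF-RIP, 1 member was called higher, ERCC3, and 1 lower, BARD1 (5.03% and 6.51% of all genes). ERCC3 had log2 differences over input of 1.54 (adjusted p = 0.0210) with No.10-3 and 1.78 (adjusted p = 0.0127) with vehicle, and BARD1 had -2.09 and -2.02. RAD54L had 0.68 with No.10-3 (adjusted p = 0.449) and 1.85 with vehicle (adjusted p = 0.0310), and LIG1 had 1.34 (adjusted p = 0.278) and 2.51 (adjusted p = 0.0305). POLD1 had 0.92 (adjusted p = 0.353) and 2.004 (adjusted p = 0.0361), XRCC3 had 0.73 and 1.55, DDB1 had 1.22 and 1.71, and TP53BP1 had 0.94 and 1.46. BRCA2 had -1.07 and -2.06, and NBN -1.07 and -1.92. By library, BRCA2 lay at -2.15 (replicate 1) and -0.41 (replicate 2) from the inputs with No.10-3 and at -1.84 with vehicle, and NBN at -1.86 and -0.59 with No.10-3 and at -1.80 with vehicle. Replicate 1 thus lay at least as far from input as vehicle did at BRCA2 and NBN. At RAD54L, LIG1, POLD1, XRCC3, DDB1 and TP53BP1 it lay nearer to input than vehicle did. Calls present in one treatment alone do not show a difference between treatments.

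The second comparison asked whether No.10-3 altered the repair mRNAs recovered with PSF. No member passed the test, with adjusted p of 0.782 to 0.993, and neither did any other gene (0.00% of 13321 called). With these few libraries the test misses most differences of 1 log2 unit, as given under the processing below. Before adjustment, 847 genes passed the same threshold of 0.05 in edgeR, among them 1 member, RAD54L. DESeq2 also called 0 genes, with 273 passing before adjustment. The log2 difference was below 0 for 25 members (71.4%, against 47.5% of all genes). Both No.10-3 libraries lay below vehicle for 18 members (51.4%, against 32.4% of all genes) and above it for 2 (5.71%, against 33.3%). Of the 107 other repair genes, both lay below vehicle for 44 (41.1%) and above it for 23. The median log2 difference of the members was -0.21, against -0.12 over the other repair genes and 0.04 over all genes. By library, the median of the members was -0.49 in replicate 1 and -0.09 in replicate 2. Both replicates share the 1 vehicle library. Recovery by PSF and the amount of each mRNA in the cells cannot be told apart here, since the treatment of each input library is not known.

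**Figure D4:**
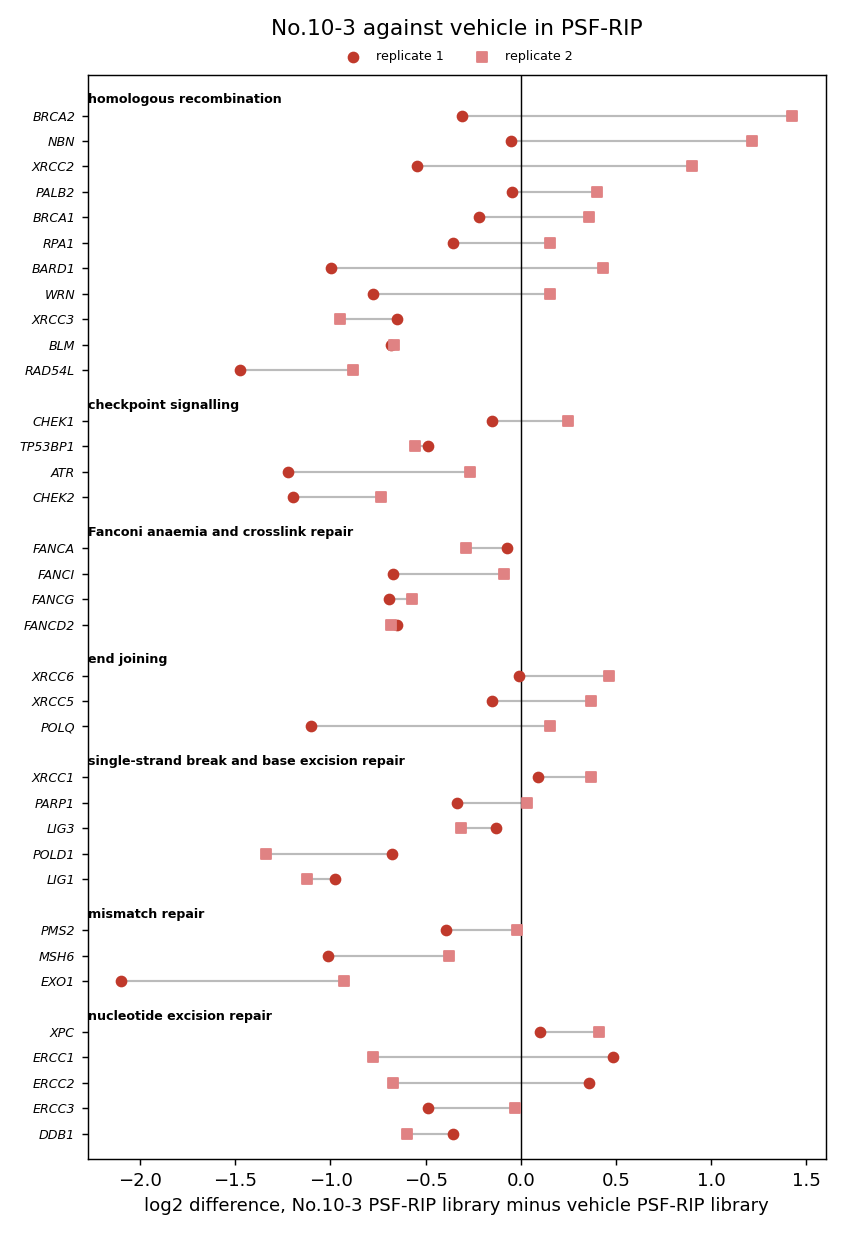
Log2 difference of each No.10-3 PSF-RIP library from the vehicle PSF-RIP library for the 35 members, with a grey line joining the replicates. Every Fanconi anaemia and mismatch repair member lies below vehicle in both replicates, some barely, such as PMS2 (-0.02 in replicate 2) and FANCA (-0.07 in replicate 1). Of the other genes of these pathways, 5 of 13 and 5 of 10 lie below it in both, against 32.4% of all genes. On opposite sides of vehicle lie 8 of the 11 homologous recombination members and 8 of the 24 other genes of that pathway.

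The members furthest below vehicle in both No.10-3 libraries were LIG1, EXO1, RAD54L, CHEK2, POLD1 and BLM, and their values stand as a description. LIG1 was at 4.06 and 3.60 CPM with No.10-3, against 8.57 with vehicle (log2 difference -1.17, SE 0.63). RAD54L was at 6.28 and 9.81 CPM with No.10-3, against 18.6 with vehicle (-1.17, SE 0.54), which puts replicate 1 within the range of the inputs (3.55 to 6.43). CHEK2 was at 4.43 and 6.34 CPM with No.10-3, against 10.95 with vehicle (-0.98, SE 0.58). None of these differences passed the test. POLD1 was at 8.13 and 4.90 CPM with No.10-3, against 13.3 with vehicle (-1.08, SE 0.58), and BLM at 1.85 and 1.87, against 3.33 (-0.83, SE 0.79). EXO1 had 1 count in replicate 1, against 15 with vehicle, a ratio of 0.103 with an exact 95% interval of 0.00246 to 0.672 that covers counting error only and leaves out the spread between libraries, and its level was 1.59 CPM in replicate 2, against 3.57 with vehicle. XPC and XRCC1 were the only members above vehicle in both No.10-3 libraries, with log2 differences of 0.28 (SE 0.49) and 0.27 (SE 0.59).

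The replicates fell on opposite sides of vehicle for 15 members, 8 of the 11 in homologous recombination and all 3 in end joining among them. Of the 107 other repair genes they did so for 40, among them 8 of 24 in homologous recombination and 3 of 6 in end joining. Over all genes, 32.4% lay below vehicle in both replicates and 33.3% above it in both, so disagreement between the replicates was common at large. BRCA2 differed from vehicle by -0.31 in replicate 1 and 1.42 in replicate 2, NBN by -0.05 and 1.21, XRCC2 by -0.54 and 0.90, and BARD1 by -0.9996 and 0.43. All 4 had log2 differences below 0 over input, of which those of BARD1 and NBN passed the test, and in replicate 2 they lay nearer to the inputs. ERCC1 and ERCC2 went the opposite way, at 0.48 and 0.36 in replicate 1 and -0.78 and -0.67 in replicate 2. Over the 35 members, log2 CPM of replicate 2 correlated with the inputs with a Pearson's r of 0.867 and 0.822, while replicate 1 had 0.684 and 0.652 and vehicle 0.668 and 0.600. Over all 13321 genes tested, the values were 0.871 and 0.845 for replicate 2, 0.819 and 0.804 for replicate 1 and 0.805 and 0.760 for vehicle. These are descriptions across genes, which are not independent replicates, and the part of this likeness to input in the results was not tested.

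The call of 6 members over input depended on single libraries. Without the No.10-3 library of replicate 2 there were 13 calls (36.4% of all genes were called), without that of replicate 1 there were 3 (12.7%), and without vehicle 2 (10.7%). Without the deeper input 3 were called (8.55% of all genes) and without the shallower input 1, BARD1 (4.46%). The count of members thus moved with that of genes at large. BARD1 was called in each of these settings and in every planned one, with log2 differences of -2.43 to -1.78. Under the GRCh38 annotation, used for names only, the span of LIG3 overlaps RFFL and that of TP53BP1 overlaps TUBGCP4, and no source used here gives the strand setting of the counts, so reads of these pairs may be mixed. None of BARD1, NBN, ERCC3 and DDB1 overlaps another gene there, with miRNAs and snoRNAs left out of the search. Whether genes of those classes lie within these spans was not examined.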

How the data were processed

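The authors deposited 1 table with whole-number read counts, gene lengths and FPKM per library. The counts are whole numbers and were treated as raw; no source says so. The FPKM values were not used. Per the submitters' processing notes, TopHat2 2.1.0, Bowtie2 2.2.6, Bowtie and hg19 were used, with no roles stated. Not given in the sources used here is how reads were counted (tool, strand, multiply mapped reads, annotation). The 1962 genes without a symbol were kept. The 2 columns taken as No.10-3 PSF-RIP are named for the compound only and were assigned by elimination, since both input columns are named input. No library was pooled.

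Genes averaging 1 CPM or more over the 5 libraries were tested with edgeR 4.0.16 (R 4.3.3). This filter, and the alternative of at least 5 CPM, used library totals before TMM factors. Those factors were 1.78 to 2.06 in PSF-RIP and 0.388 and 0.365 in input, so the filter gave PSF-RIP levels more weight. The test used TMM factors, glmQLFit and glmQLFTest, Benjamini-Hochberg adjustment over all 13321 genes, threshold 0.05. PSF-RIP (3 libraries) over input (2) was a 2-group fit with 3 residual degrees of freedom. No.10-3 over vehicle PSF-RIP, and each of them over input (the last chosen after the counts were seen), came from a 3-group fit with 2, in which the lone vehicle library is assumed to vary like the other groups. The SE is the log2 difference divided by the square root of the F statistic. Differences of single libraries use log2 CPM (prior count 2), and low genes are understated. DESeq2 1.42.0 was an alternative. The procedure was tested on simulated data. Few genes were changed there, 97 of each size among 12605 for PSF-RIP over input, while 20.4% of genes were called in the data. The adjustment over input was therefore stricter in the simulation, so the shares recovered over input do not measure the power of that comparison. Of genes given a log2 difference of 1, it recovered 8.25% for PSF-RIP over input and 2.06% for No.10-3 over vehicle. Of genes given a log2 difference of 2, it recovered 61.9% and 41.7%. There were 3 false calls in each comparison. Most simulated differences of 1 log2 unit were thus missed. The inputs differed from each other by more than counting error, with a chi-square of 5.86 per degree of freedom, as did the No.10-3 pair, with 25.9.

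The members, the pathway split, the other repair genes and the markers were chosen with earlier results of these data known. Values in every library were given for called members, for up to 3 members per pathway by size of the log2 difference over input, and for up to 6 per direction by the smaller of the 2 No.10-3 differences from vehicle; further members were named to account for all 35. Of the other repair genes, at most 10 called per direction were to be named; TIMELESS, FAAP100 and TOP3A fall outside this and were added after their values were seen, and 1 called higher is not reported here.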

Additional observations from a re-analysis of the deposited data

How the results depend on the processing

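Alternatives were RLE factors, totals without mitochondrially encoded and small structured RNAs, no filter, a mean of at least 5 CPM, DESeq2, another grouping of the libraries (3 groups for PSF-RIP over input, only the PSF-RIP libraries for No.10-3 over vehicle) and leaving out each library. Library totals with no factor were added after seeing the data. Over input, the planned settings that kept all libraries called 4 to 8 members. Leaving out 1 library called 1 to 13 members and 4 to 37 other repair genes, against 6 and 23 with all, while the share of all genes called ran from 4.46% to 36.4%. Library totals alone called 31 members, 96 other repair genes and 87.5% of all genes, and moved the members' median to 2.75, 0.33 above that of all genes, against 0.32 with TMM. There BARD1 (0.31), BRCA2 (1.04), CHEK1 (1.36), EXO1 (1.90) and NBN (1.07) turned positive, since the zero point moved. CHEK2 reversed without vehicle, EXO1 without the deeper input, and POLQ without replicate 2 of No.10-3 (-0.0494) or the shallower input (-0.0467), with ranges of -0.0107 to 0.72, -1.14 to 0.12 and -0.0494 to 0.51 when 1 library was left out; the cause was not tested. NBN was called in 6 of the 12 settings other than library totals alone and LIG3 in 5, with log2 differences of -1.95 to -1.08 and 0.85 to 1.38. With all libraries kept, NBN lost its call with DESeq2 (adjusted p = 0.0526) and with totals without mitochondrially encoded and small structured RNAs (0.0672), and LIG3 with DESeq2 (0.0568), RLE factors (0.0543) and at least 5 CPM (0.0545). No member was called for No.10-3 over vehicle in any setting, with a median of -0.49 to -0.11 when 1 library was left out, although all genes gave 870 calls without replicate 1, 26 without replicate 2 and 9 with no filter. No paired analysis was possible because the labels give no replicate numbers that tie PSF-RIP to input or to vehicle. Low counts in the inputs limit the precision for LIG1, POLD1, FANCA, EXO1 and BLM.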
